A study of Mus musculus with 24 samples.

Results

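Creb3l1, which encodes a membrane-bound transcription factor of the endoplasmic reticulum (ER), and 9 genes of the unfolded protein response were followed across treatments and days in 24 bulk RNA-seq libraries of mouse brain tumours. The 10 genes are Creb3l1, Hspa5, Hsp90b1, Calr, Pdia4, Sdf2l1, Dnajb9, Edem1, Herpud1 and Xbp1. They were named as genes of this response, and Creb3l1 was selected on its counts, which had been seen to be higher after D2C7-IT than after Vehicle at day 0. They are 10 of 49315 genes counted, and all 10 were among the 22280 genes that passed a filter on low counts. Because the comparison of D2C7-IT with Vehicle at day 0 chose Creb3l1, its values for all 10 genes are given as a description, without a test.

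Each tumour grew in the right hemisphere of a mouse from CT-vIII cells, a CT-2A glioma line transduced with mouse EGFR variant III and firefly luciferase, which all groups share. A micro-osmotic pump then delivered the treatment into the tumour for 72 h at 0.5 µl/h, starting on day 6 after implantation and ending on day 9. The 8 groups of 3 tumours were D2C7-IT + αCD40, D2C7-IT, αCD40 and Vehicle, each harvested either 3 days after the pump was removed (day 3) or at its removal (day 0). D2C7-IT (0.2 µg) is an immunotoxin whose antibody part binds EGFR and its variant III and whose bacterial exotoxin part inactivates elongation factor 2, which stops protein synthesis. αCD40 (10 to 300 µg) is an antibody against the immune receptor CD40, without a stated dose for each tumour. Vehicle was 2% MSA-PBS with 100 µg of a rat IgG2a antibody. The labels state no age, sex or strain of the mice. The whole tissue was sequenced without sorting and all tumours came from 1 cell line, so fewer cells of a type and less RNA per cell cannot be told apart in any value below.

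Libraries held 24697576 to 48119840 counts. In 3 of them, Vehicle day 3 replicates 2 and 3 and αCD40 day 3 replicate 1, Egfr stood at 283 to 343 CPM (counts scaled to the same library total, with library sizes adjusted by edgeR's TMM factors), against 13.1 to 50.8 CPM in the other 21. Counts of Egfr include both the transduced variant and the gene of the mouse. Summed over 10 genes of dividing cells, the same 3 libraries held 1158 to 1474 CPM, against 15.8 to 163 CPM in the other 21. Summed over 10 neuronal genes they held 2298 to 4044 CPM, against 4856 to 12420 CPM in the other 21. These 3 libraries are called the high-Egfr libraries here, and log2 fold changes of the day 3 comparisons that use them are also given without them, which leaves 1 Vehicle and 2 αCD40 libraries at day 3.

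Proteins that fail to fold in the ER activate membrane sensors. IRE1 (gene Ern1) splices Xbp1 messenger RNA, ATF6 travels to the Golgi and is cut there, and PERK (Eif2ak3) slows translation, while the XBP1 and ATF6 proteins switch on genes for chaperones, secretion and the degradation of misfolded proteins. CREB3L1, also called OASIS, is built like ATF6: site-1 and site-2 proteases release its DNA-binding part from the membrane, and it is known from astrocytes and from cells that secrete collagen. Gene counts show neither the splicing of Xbp1 nor the cutting of CREB3L1.

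The binding element through which ATF6, with the factor NF-Y, acts on chaperone genes is the ER stress response element (ERSE), the letters CCAAT and CCACG with 9 bases between them. Its variant ERSE-II is ATTGG and CCACG with 1 base between them, and the element UPRE, bound by XBP1 and ATF6, is TGACG followed directly by TGG. The 3 motifs overlap in letters, since each holds CCACG or its reverse complement CGTGG. They were searched on both strands in promoters of RefSeq (GRCm38.p6), from 250 bases before to 50 bases after the start site, and 9 of the 10 genes were matched by symbol, all but Creb3l1. ERSE was found in Hspa5, Hsp90b1 and Calr, against 39 of all 32851 promoters (0.119%). ERSE-II was found in Herpud1, against 12 of all promoters (0.0365%). UPRE was found in none of the 9, against 222 of all promoters (0.676%). Windows around the matches are shown because they carry the element known to act on chaperone genes, with the motif's letters in capitals and each read 5′ to 3′ on the strand of its gene. In Hspa5 (chr2:34772005-34772063, plus strand) the motif lies 65 to 47 bases before the RefSeq start site, and in Herpud1 (chr8:94386357-94386407, plus strand) it lies 52 to 42 bases before it. Hsp90b1 holds 2 motifs, one in the forward direction (chr10:86705618-86705676, minus strand) and one reversed (chr10:86705513-86705571, minus strand), and in Calr it is reversed (chr8:84847055-84847113, minus strand).
Hspa5: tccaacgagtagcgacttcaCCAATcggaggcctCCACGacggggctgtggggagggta
Hsp90b1, forward: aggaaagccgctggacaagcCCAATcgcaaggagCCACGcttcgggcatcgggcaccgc
Hsp90b1, reversed: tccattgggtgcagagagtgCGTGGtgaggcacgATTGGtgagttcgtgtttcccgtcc
Calr: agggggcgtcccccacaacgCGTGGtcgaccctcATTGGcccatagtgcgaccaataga
Herpud1: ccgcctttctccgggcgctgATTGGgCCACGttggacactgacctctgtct
A match is a run of letters and says nothing on whether a factor was bound in these tumours. The same motifs were found in 5 of 19 promoters of other folding genes (Dnajb11, Dnajc3, Canx, Pdia6 and Creld2) and in 2 of 12 promoters of other degradation genes (Syvn1 and Derl3).

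Levels between genes were compared in TPM, in which counts are divided by summed exon length and scaled to the same total in each library. The lumenal chaperones were the most abundant of the 10 genes. Calr, which encodes the lectin chaperone calreticulin, had a median of 608 TPM over the 24 libraries (474 to 1263 TPM). Hsp90b1, which encodes GRP94, had a median of 335 TPM (280 to 837 TPM), and Hspa5, which encodes BiP, the ER's Hsp70 and a regulator of the 3 sensors, had a median of 331 TPM (220 to 683 TPM). Creb3l1 was the least abundant, with a median of 8.68 TPM (3.28 to 32.5 TPM), and it had the widest relative range in CPM, its highest library lying 8.98 times above its lowest. The lowest was a Vehicle library and the highest a D2C7-IT library, both of day 0. Both belong to the comparison that chose Creb3l1, so its wide range is in part a result of that choice. In the other 9 genes, that ratio ran from 1.64 in Herpud1 to 8.13 in Edem1 over all 24 libraries, and from 1.36 in Dnajb9 to 2.41 in Sdf2l1 over the 21 without high Egfr.

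**Figure D1:**
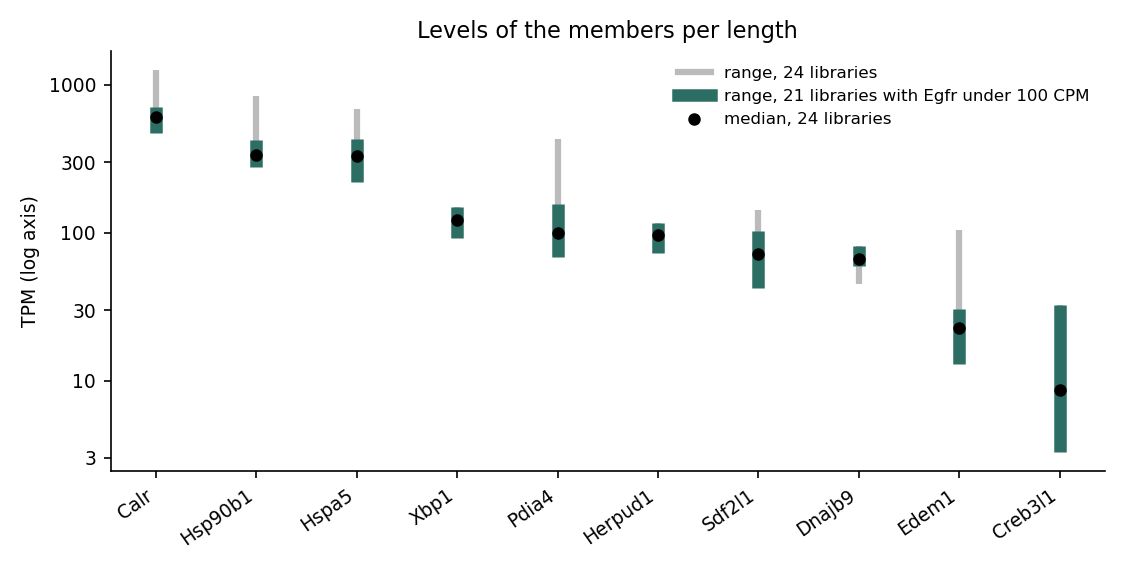
Range and median of each gene on the TPM scale (log axis), over all 24 libraries and over the 21 libraries with Egfr under 100 CPM. Calr, Hsp90b1 and Hspa5 lie highest, with medians of 608, 335 and 331 TPM, and Creb3l1 lowest at 8.68 TPM. Leaving out the high-Egfr libraries does not narrow the range of Creb3l1, whose ends are libraries of the comparison that chose it.

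Creb3l1 was highest after D2C7-IT alone at day 0. It stood at 17.1, 21.4 and 12.7 CPM in the D2C7-IT tumours of day 0, against 3.53, 3.44 and 2.38 CPM in the Vehicle tumours of that day. The groups did not overlap, and the log2 fold change was 2.45 ± 0.43 (SE). This is the difference by which the gene was chosen. In this comparison 18 of all genes were called by edgeR's quasi-likelihood test with Benjamini-Hochberg adjustment at an adjusted p under 0.05 (0.0808%), all of them higher. Creb3l1 was 1 of them, which is no separate support because these values chose the gene. It was not called with the replicate number added to the fit or on leaving out single libraries.

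Creb3l1 was lower when αCD40 had been given with the immunotoxin, in values that can only be set side by side. The D2C7-IT + αCD40 tumours of day 0 had 4.56, 7.29 and 4.50 CPM, against 17.1, 21.4 and 12.7 CPM in the D2C7-IT tumours, whose high values chose the gene. The αCD40 tumours of day 0 had 3.74, 5.02 and 5.31 CPM. Set against αCD40 alone, which the choice of the gene did not use, the combination differed by 0.22 ± 0.41 (log2, SE; adjusted p = 1), and the groups overlapped. Against the same Vehicle libraries that were used in choosing the gene, the log2 fold change was 0.80 ± 0.41 for D2C7-IT + αCD40 and 0.59 ± 0.41 for αCD40 (SE; adjusted p = 1 for both by edgeR), and in both cases no treated library lay below the highest Vehicle library.

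At day 3, Creb3l1 was again highest after D2C7-IT alone but varied widely between tumours. It stood at 20.6, 8.50 and 6.43 CPM in D2C7-IT tumours, against 3.07, 6.84 and 5.70 CPM in Vehicle tumours. Both groups are libraries that the choice of the gene did not use, and they overlapped, since the lowest D2C7-IT tumour lay below the highest Vehicle tumour. The log2 fold change was 1.18 ± 0.41 (SE), which did not pass the test (adjusted p = 0.0916 by edgeR), and DESeq2 gave an adjusted p of 0.0443. Without D2C7-IT replicate 1, the log2 fold change was 0.52 (adjusted p = 0.418), and without the high-Egfr libraries, which leaves 1 Vehicle library at day 3, it was 1.96 (adjusted p = 0.804).

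In D2C7-IT + αCD40 tumours of day 3 Creb3l1 had 6.23, 10.5 and 8.37 CPM, against 3.07, 6.84 and 5.70 CPM in Vehicle tumours. The groups overlapped and the log2 fold change of 0.68 ± 0.41 (SE) did not pass the test (adjusted p = 0.307), and without the high-Egfr libraries it was 1.48 (adjusted p = 0.708). αCD40 tumours of day 3 had 7.27, 3.70 and 3.67 CPM, a log2 fold change of -0.09 ± 0.41 against Vehicle, which turned to 0.29 without the high-Egfr libraries. The highest of these αCD40 tumours was the high-Egfr one, as were the 2 highest Vehicle tumours of day 3. Against αCD40, the combination at day 3 differed in Creb3l1 by 0.78 ± 0.41 (adjusted p = 0.473; 1.19 without the high-Egfr libraries), and against D2C7-IT by -0.50 ± 0.41 (adjusted p = 1; SE, edgeR).

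Ordered by mean, Creb3l1 was highest in D2C7-IT day 0 tumours (17.1 ± 4.35 CPM, SD, n = 3 in each group), then in D2C7-IT day 3 (11.8 ± 7.63 CPM), D2C7-IT + αCD40 day 3 (8.37 ± 2.14 CPM), D2C7-IT + αCD40 day 0 (5.45 ± 1.59 CPM), Vehicle day 3 (5.20 ± 1.94 CPM), αCD40 day 3 (4.88 ± 2.07 CPM), αCD40 day 0 (4.69 ± 0.837 CPM) and Vehicle day 0 tumours (3.12 ± 0.639 CPM). Every neighbour in this order overlapped the next, except αCD40 day 0, all of whose libraries lay above Vehicle day 0. Between days, Creb3l1 differed by -0.53 in D2C7-IT tumours (day 3 minus day 0), given without a test because the day 0 libraries chose the gene, and by 0.62 ± 0.41 in D2C7-IT + αCD40 tumours (adjusted p = 1). The effect of D2C7-IT + αCD40 against Vehicle differed between day 3 and day 0 by -0.12 (log2; adjusted p = 0.941), and that of αCD40 by -0.68 (adjusted p = 1). Both of these differences use the Vehicle libraries of day 0, which were used in choosing the gene.

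**Figure D2:**
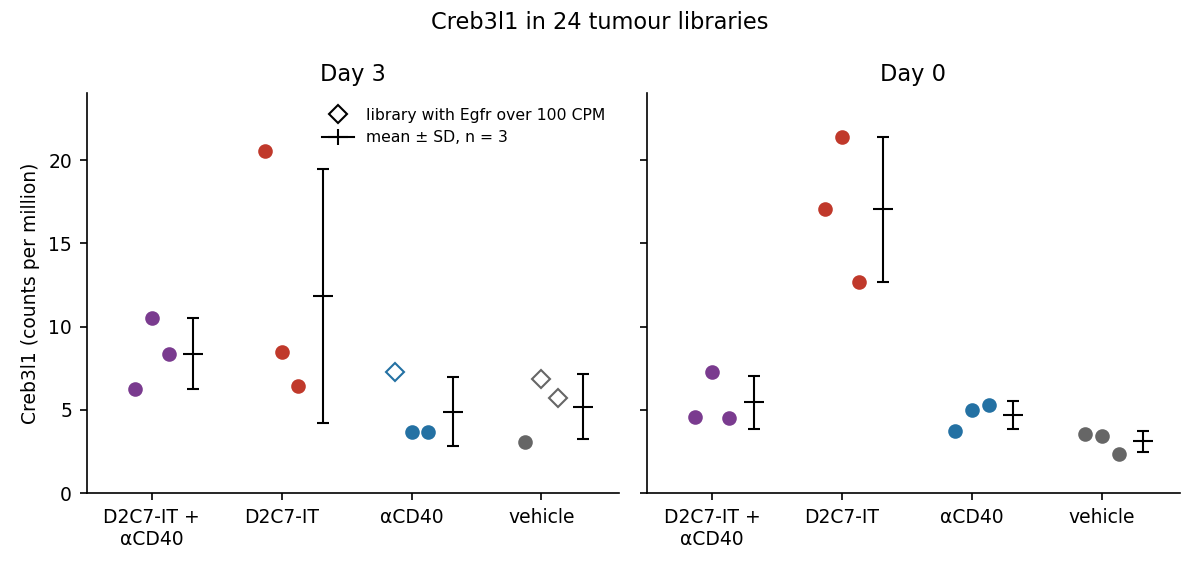
Creb3l1 in CPM for each of the 24 libraries, by treatment, with day 3 on the left and day 0 on the right, 1 point per tumour and the mean ± SD of 3 tumours beside it. Open diamonds are the 3 libraries with Egfr over 100 CPM. D2C7-IT tumours of day 0 sit between 12.7 and 21.4 CPM, above all other day 0 tumours, and at day 3 a single D2C7-IT tumour at 20.6 CPM lies above the rest.

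Creb3l1 has 4 relatives with the same membrane-bound design (Creb3, Creb3l2, Creb3l3 and Creb3l4), and they are cut by the proteases of Mbtps1 and Mbtps2. After D2C7-IT at day 0, Creb3l4 was at 1.05, 0.956 and 0.969 CPM, against 0.402, 0.597 and 0.397 CPM in Vehicle tumours, without overlap but at a level near 1 CPM. At day 3 it was at 1.23, 1.14 and 1.03 CPM after D2C7-IT, against 0.298, 0.700 and 0.591 CPM in Vehicle tumours, again without overlap (log2 fold change 1.09 ± 0.36 SE; adjusted p = 0.0853 by edgeR; 1.93 without the high-Egfr libraries). Of all genes tested, 17.6% did not overlap in this comparison at day 0 and 13.2% at day 3. The other relatives overlapped with Vehicle after D2C7-IT at day 0. Creb3 differed by 0.06 and Creb3l2 by 0.10, while Creb3l3 lay lower by -0.84, at a mean of 0.36 CPM against 0.65 CPM. Mbtps1 was at 93.1 ± 11.6 CPM after D2C7-IT at day 3, against 125 ± 18.3 CPM in Vehicle tumours (SD, n = 3 each; log2 fold change -0.43 ± 0.15 SE, adjusted p = 0.0918; -0.16 without the high-Egfr libraries). Among these 7 genes, edgeR called 0 in D2C7-IT against Vehicle at day 3 (0% of all genes tested), with 3 at an unadjusted p under 0.05 (28.2% of all genes): Creb3l4 and Creb3l1 on the higher side and Mbtps1 on the lower. DESeq2 called 2 higher and 1 lower, and its far larger count over all genes in this comparison is given in the closing section.

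Genes of collagen-secreting cells, in which CREB3L1 is known to act, summed over 10 genes to 498 to 1081 CPM in D2C7-IT tumours of day 0, against 405 to 894 CPM in Vehicle tumours, with overlap. In D2C7-IT + αCD40 tumours of that day they summed to 486 to 1444 CPM. The high-Egfr libraries held the highest sums, 3584 to 4131 CPM, against 405 to 1444 CPM in the other 21, and their Creb3l1 was at 5.70 to 7.27 CPM. Single collagen genes went different ways in Vehicle tumours, most of which were high in Egfr at day 3. Col1a1 was at 24.1 to 226 CPM at day 3, against 24.9 to 31.6 CPM at day 0. Col1a2 was at 26.5 to 38.4 CPM at day 3, against 36.7 to 46.1 CPM at day 0. Of 8 astrocyte markers, the sum was 4317 to 5353 CPM in D2C7-IT tumours of day 0, against 4596 to 5028 CPM in Vehicle tumours, with overlap. Gfap, an intermediate filament gene that reactive astrocytes raise, was itself at 1320 to 2244 CPM in D2C7-IT tumours, against 425 to 1130 CPM in Vehicle tumours, and did not overlap. The other astrocyte markers went both ways. Aqp4 (log2 fold change 0.65) and Slc1a3 (0.18) lay above Vehicle and Slc1a2 (-0.59) below it without overlap. Aldh1l1 (0.06), S100b (-0.21), Gja1 (-0.27) and Aldoc (-0.47) overlapped. Of all genes tested, 17.6% did not overlap in this comparison. The sum of 8 neutrophil markers was 41.2 to 45.7 CPM in D2C7-IT tumours, against 13.4 to 33.9 CPM in Vehicle tumours, without overlap. Most of it was Csf3r, at a mean of 32.3 CPM against 18.4 CPM. S100a8 (1.98 against 0.15 CPM, log2 fold change 3.76) and S100a9 (2.41 against 0.28 CPM, 3.10) lay above Vehicle without overlap, at low levels. Cxcr2 did so too (1.99 against 0.02 CPM, 5.99). Mmp9 (3.40 against 1.74 CPM) did not overlap either, while Mmp8 (0.59 against 0.10 CPM) overlapped. Ly6g (0.02 against 0 CPM) and Retnlg (0.11 against 0.10 CPM) did not pass the filter on low counts. The sum of 8 endothelial markers was 338 to 382 CPM in D2C7-IT tumours, against 219 to 261 CPM in Vehicle tumours, also without overlap. Endothelial sums were also above Vehicle after αCD40 (350 to 425 CPM) and after D2C7-IT + αCD40 (322 to 401 CPM) at day 0. The part of any of these cells in the Creb3l1 values was not tested.

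At day 0, the chaperones after D2C7-IT overlapped with Vehicle, on the comparison that chose Creb3l1 and without a test. Hspa5 was at 457, 393 and 349 CPM in D2C7-IT tumours, against 468, 455 and 395 CPM in Vehicle tumours. Pdia4, which encodes a disulphide isomerase, was at 80.6, 71.7 and 67.9 CPM in D2C7-IT tumours, against 98.6, 75.4 and 68.7 CPM in Vehicle tumours. Both pairs of groups overlapped. The log2 fold changes of the 9 genes other than Creb3l1 ran from -0.25 (Herpud1) to 0.33 (Edem1), and the median of all 10 was -0.12, against -0.01 for all genes tested. Of the 9 genes other than Creb3l1, only Dnajb9 (0.19) and Herpud1 (-0.25) did not overlap with Vehicle, against 17.6% of all genes tested. Creb3l1 is left out of that count because this comparison chose it.

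D2C7-IT + αCD40 gave 7 of the 10 genes a value below Vehicle at day 0. Sdf2l1, which encodes an ER-resident partner of BiP's co-chaperones, was at 14.2, 16.7 and 25.2 CPM in D2C7-IT + αCD40 tumours, against 26.8, 30.2 and 25.2 CPM in Vehicle tumours. These groups came within rounding of each other without overlapping, and the log2 fold change was -0.55 ± 0.38. Xbp1 was at 88.3, 83.7 and 104 CPM in D2C7-IT + αCD40 tumours, against 105, 119 and 122 CPM in Vehicle tumours (-0.33 ± 0.18). Calr was at 415, 360 and 453 CPM in D2C7-IT + αCD40 tumours, against 505, 550 and 486 CPM in Vehicle tumours (-0.33 ± 0.32). Of the genes other than Creb3l1, these 3 and Herpud1 did not overlap with Vehicle and lay below it, against 9.47% of all genes tested. Creb3l1 lay above Vehicle without overlap. It is left out of that comparison with all genes because these Vehicle libraries were used in choosing it.

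No gene was called in that comparison. edgeR called 0 of the 10 at an adjusted p under 0.05, with 0 at an unadjusted p under 0.05, and called 0% of all genes tested. DESeq2 called 0 of the 10 as well. For αCD40 against Vehicle at day 0 the same 3 counts were 0 (0% of all genes called by edgeR). Of the genes other than Creb3l1, Hspa5 and Sdf2l1 did not overlap, against 7.47% of all genes tested. Creb3l1 did not overlap either and is again left out of that comparison with all genes. Hspa5 was at 394, 331 and 359 CPM in αCD40 tumours, against 468, 455 and 395 CPM in Vehicle tumours (log2 fold change -0.28 ± 0.38 SE). Both comparisons share their Vehicle libraries with the one that chose Creb3l1. Set against αCD40 at day 0, D2C7-IT + αCD40 gave log2 fold changes between -0.27 (Pdia4) and 0.22 (Creb3l1), and 0 of 10 genes without overlap, against 4.58% of all genes tested. edgeR called 0 of 10 there too (0% of all genes), with 0 at an unadjusted p under 0.05, and DESeq2 called 0.

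At day 3, the chaperones were lower on average after D2C7-IT than in Vehicle tumours, in differences set by the 2 high-Egfr Vehicle libraries. Pdia4 was at 48.1, 46.9 and 59.3 CPM in D2C7-IT tumours, against 44.9, 241 and 266 CPM in Vehicle tumours. The remaining Vehicle library lay below all 3 D2C7-IT tumours. The log2 fold change was -1.84 ± 0.58 (SE; adjusted p = 0.0828 by edgeR, 0.0204 by DESeq2), and it was 0.21 without the high-Egfr libraries.

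Hspa5 was at 386, 261 and 276 CPM in D2C7-IT tumours of day 3, against 255, 663 and 778 CPM in Vehicle tumours. Hsp90b1 was at 348, 309 and 331 CPM in D2C7-IT tumours, against 312, 766 and 845 CPM in Vehicle tumours. Calr was at 473, 370 and 385 CPM in D2C7-IT tumours, against 364, 821 and 934 CPM in Vehicle tumours. All 3 genes overlapped between the groups in the same way: 2 Vehicle libraries lay far above, and 1 lay with the treated tumours. Their log2 fold changes were -0.88 ± 0.39 for Hspa5 (adjusted p = 0.147), -0.96 ± 0.35 for Hsp90b1 (adjusted p = 0.0981) and -0.79 ± 0.32 for Calr (adjusted p = 0.122; SE, edgeR). Without the high-Egfr libraries they turned to 0.28 for Hspa5, 0.09 for Hsp90b1 and 0.18 for Calr.

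Of the genes that clear misfolded proteins, Edem1 had values like those of the chaperones and Herpud1 did not. Edem1, which encodes a lectin that marks misfolded glycoproteins for degradation, was at 43.6, 45.1 and 39.4 CPM in D2C7-IT tumours of day 3, against 27.1, 132 and 133 CPM in Vehicle tumours. Its log2 fold change was -1.19 ± 0.55 (SE; adjusted p = 0.168) and turned to 0.67 without the high-Egfr libraries. Herpud1, which encodes a scaffold of the degradation complex, was at 64.4, 60.2 and 43.4 CPM in D2C7-IT tumours, against 47.2, 57.5 and 54.5 CPM in Vehicle tumours, a log2 fold change of 0.08 ± 0.15 (SE; adjusted p = 0.757). Xbp1 was at 117, 92.4 and 76.7 CPM in D2C7-IT tumours, against 87.1, 113 and 122 CPM in Vehicle tumours (-0.17 ± 0.18, adjusted p = 0.542). Sdf2l1 differed by -0.59 ± 0.38 (adjusted p = 0.312), and without the high-Egfr libraries by 0.58.

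Dnajb9, which encodes the co-chaperone ERdj4, a target of XBP1, stood above Vehicle. It was at 49.9, 49.0 and 49.8 CPM in D2C7-IT tumours of day 3 and at 43.9, 53.4 and 51.6 CPM in D2C7-IT + αCD40 tumours, against 41.9, 31.2 and 36.1 CPM in Vehicle tumours. It was the 1 of 10 genes that did not overlap with Vehicle in either comparison, against 13.2% of all genes tested for D2C7-IT and 15.5% for D2C7-IT + αCD40. The log2 fold change was 0.45 ± 0.12 in both comparisons (SE), with an adjusted p of 0.08 for D2C7-IT and 0.108 for the combination by edgeR, and by DESeq2 of 0.00531 for D2C7-IT and 0.00663 for the combination. Without the high-Egfr libraries, in which Dnajb9 was lowest, it was 0.26 for D2C7-IT and 0.27 for D2C7-IT + αCD40.

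The combination had values like those of D2C7-IT alone at day 3. Pdia4 was at 55.5, 51.0 and 49.9 CPM and Hspa5 at 363, 313 and 256 CPM in D2C7-IT + αCD40 tumours, with log2 fold changes against the same Vehicle libraries of -1.82 ± 0.58 for Pdia4 (adjusted p = 0.109) and -0.87 ± 0.39 for Hspa5 (adjusted p = 0.181; SE, edgeR). Without the high-Egfr libraries they were 0.24 for Pdia4 and 0.31 for Hspa5. Set against D2C7-IT at day 3, the combination differed by between -0.04 (Edem1) and 0.09 (Calr) in the 9 genes other than Creb3l1, with adjusted p = 1 for each, and 0 of the 10 genes did not overlap, against 11.6% of all genes tested. Set against αCD40 at day 3, of whose libraries 1 is high in Egfr, the combination had Pdia4 at -1.34 ± 0.57 (adjusted p = 0.425) and Dnajb9 at 0.32 ± 0.12 (adjusted p = 0.407), and without that library 0.02 for Pdia4 and 0.24 for Dnajb9. Dnajb9, at 43.9, 53.4 and 51.6 CPM in D2C7-IT + αCD40 tumours, against 34.8, 41.8 and 42.4 CPM in αCD40 tumours, was the 1 of 10 genes that did not overlap there, against 9.76% of all genes tested. In both comparisons edgeR called 0 of the 10 (0% of all genes tested) and DESeq2 called 0, with 2 at an unadjusted p under 0.05 against αCD40 and 0 against D2C7-IT.

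After αCD40 alone at day 3, each group held at least 1 high-Egfr library, and 0 of the 10 genes did not overlap with Vehicle, against 2.71% of all genes tested. Hspa5 was at 806, 293 and 249 CPM in αCD40 tumours, against 255, 663 and 778 CPM in Vehicle tumours. Log2 fold changes of the 10 genes ran from -0.48 ± 0.56 (Pdia4) to 0.15 ± 0.15 (Herpud1), each with an adjusted p of 0.998, and without the high-Egfr libraries from 0.03 (Dnajb9) to 0.47 (Edem1). edgeR called 0 of the 10 (0% of all genes tested) with 0 at an unadjusted p under 0.05, and DESeq2 called 0.

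Counted over the 10 genes, edgeR called 0 in D2C7-IT against Vehicle at day 3 (0% of all genes tested), with 7 at an unadjusted p under 0.05 (28.2% of all genes), and DESeq2 called 3 (Creb3l1 and Dnajb9 higher, Pdia4 lower; 2771 of all genes). In D2C7-IT + αCD40 against Vehicle at day 3 edgeR called 0 (0.0404% of all genes tested), with 6 at an unadjusted p under 0.05 (24% of all genes), and DESeq2 called 2 (Dnajb9 higher, Pdia4 lower; 1626 of all genes). The median log2 fold change of the 10 genes was -0.69 for D2C7-IT and -0.61 for D2C7-IT + αCD40, against 0.02 and 0.01 for all genes tested. Without the high-Egfr libraries these medians were 0.26 and 0.28, with 0 genes called by edgeR in either. Without Vehicle day 3 replicate 1, so that both Vehicle libraries left are high in Egfr, edgeR called 7 of the 10 for D2C7-IT and 6 for D2C7-IT + αCD40. These counts stand without the share of all genes called in the same fits, so they are not read as a result about the 10 genes. Calls over all genes also rose steeply when single libraries were left out. The range of those calls is given in the closing section.

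**Figure D3:**
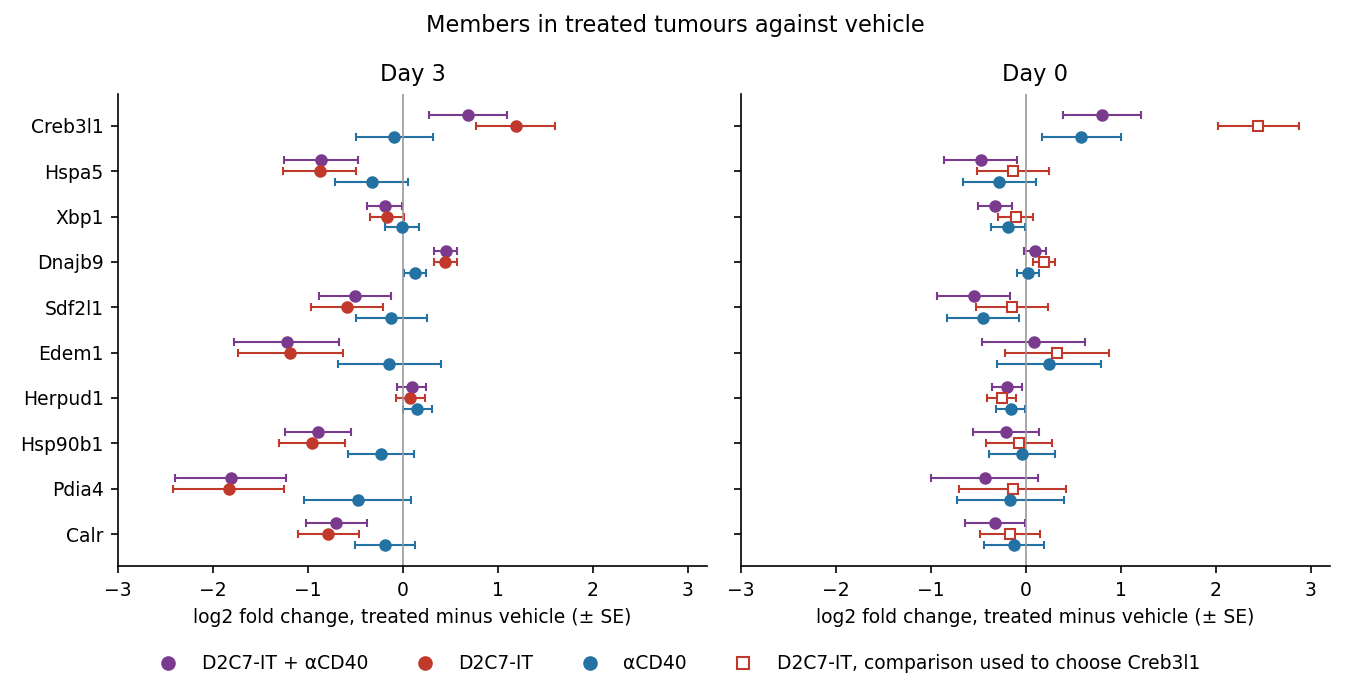
Log2 fold change of each gene in treated tumours over Vehicle, with the standard error of edgeR's fit, at day 3 on the left and day 0 on the right (3 tumours a group). Open squares mark the comparison that chose Creb3l1, where it stands at 2.45 and the other genes lie between -0.25 and 0.33. At day 3, Pdia4 and Edem1 lie lowest after D2C7-IT (-1.84 and -1.19), values that turn to 0.21 and 0.67 without the high-Egfr libraries.

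Within Vehicle tumours, Edem1 differed between days by 1.70 ± 0.56 (log2, day 3 minus day 0, SE; adjusted p = 0.108 by edgeR) and Pdia4 by 1.18 ± 0.57 (adjusted p = 0.169). Leaving out the high-Egfr libraries gave -0.15 for Edem1 and -0.86 for Pdia4. edgeR called 0 of the 10 genes (0% of all genes tested), with 1 at an unadjusted p under 0.05 (30.2% of all genes), and DESeq2 called 1 (2413 of all genes). Only Herpud1 did not overlap between the days, being lower at day 3 (-0.31 ± 0.15 SE; -0.49 without the high-Egfr libraries), against 13.1% of all genes tested. In αCD40 tumours, of which 1 at day 3 is high in Egfr, Edem1 differed between days by 1.32 ± 0.56 (adjusted p = 0.424; 0.07 without the high-Egfr library), and 0 of the 10 genes did not overlap, against 10.9% of all genes tested. In D2C7-IT tumours, Edem1 was higher and Pdia4 lower at day 3 without overlap (0.19 ± 0.55 and -0.51 ± 0.57), 2 of 10 genes against 11.3% of all genes tested. In D2C7-IT + αCD40 tumours 0 of the 10 did not overlap, against 13.6%. In these 3 groups edgeR called 0 of the 10 between days, against 0.0583% of all genes tested in αCD40, 0.00449% in D2C7-IT and 0% in D2C7-IT + αCD40, and DESeq2 called 0 in each. At an unadjusted p under 0.05 stood 1 of the 10 in αCD40 tumours (Edem1), 0 in D2C7-IT and 0 in D2C7-IT + αCD40.

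Without the high-Egfr libraries the median log2 difference of the 10 genes in Vehicle tumours (day 3 minus day 0) was -0.45, against 0.41 with them.

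The high-Egfr libraries held the highest value of 7 of the 10 genes. Edem1 was at 132 to 190 CPM in them, against 23.4 to 48.6 CPM in the other 21, and Pdia4 at 241 to 292 CPM, against 44.2 to 98.6 CPM. Hspa5 (663 to 806 CPM, against 249 to 468 CPM), Hsp90b1 (766 to 958 CPM, against 290 to 431 CPM) and Calr (821 to 1033 CPM, against 360 to 550 CPM) also did not overlap between these and the other libraries. Their means were 2.11 times (Calr) to 4.24 times (Pdia4) those of the other 21 libraries. Dnajb9 was lower in them, at 31.2 to 36.1 CPM, against 39.3 to 53.4 CPM, while Creb3l1, Xbp1, Herpud1 and Sdf2l1 overlapped. Since these libraries were set apart after their values were seen, the differences are a description.

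Plasma cells secrete much protein and are known for high Xbp1 and chaperone levels. Of their 8 markers, the summed level was 173 to 1831 CPM in the high-Egfr libraries, against 13.8 to 1244 CPM in the other 21, and no marker was at 0 in all libraries. It was 27.8 to 44.9 CPM in D2C7-IT tumours of day 0, against 15.0 to 66.6 CPM in Vehicle tumours. At day 3 it was 50.4 to 55.0 CPM in D2C7-IT tumours, against 26.2 to 515 CPM in Vehicle tumours. The part of plasma cells, or of dividing or neuronal cells, in the chaperone values was not tested.

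**Figure D4:**
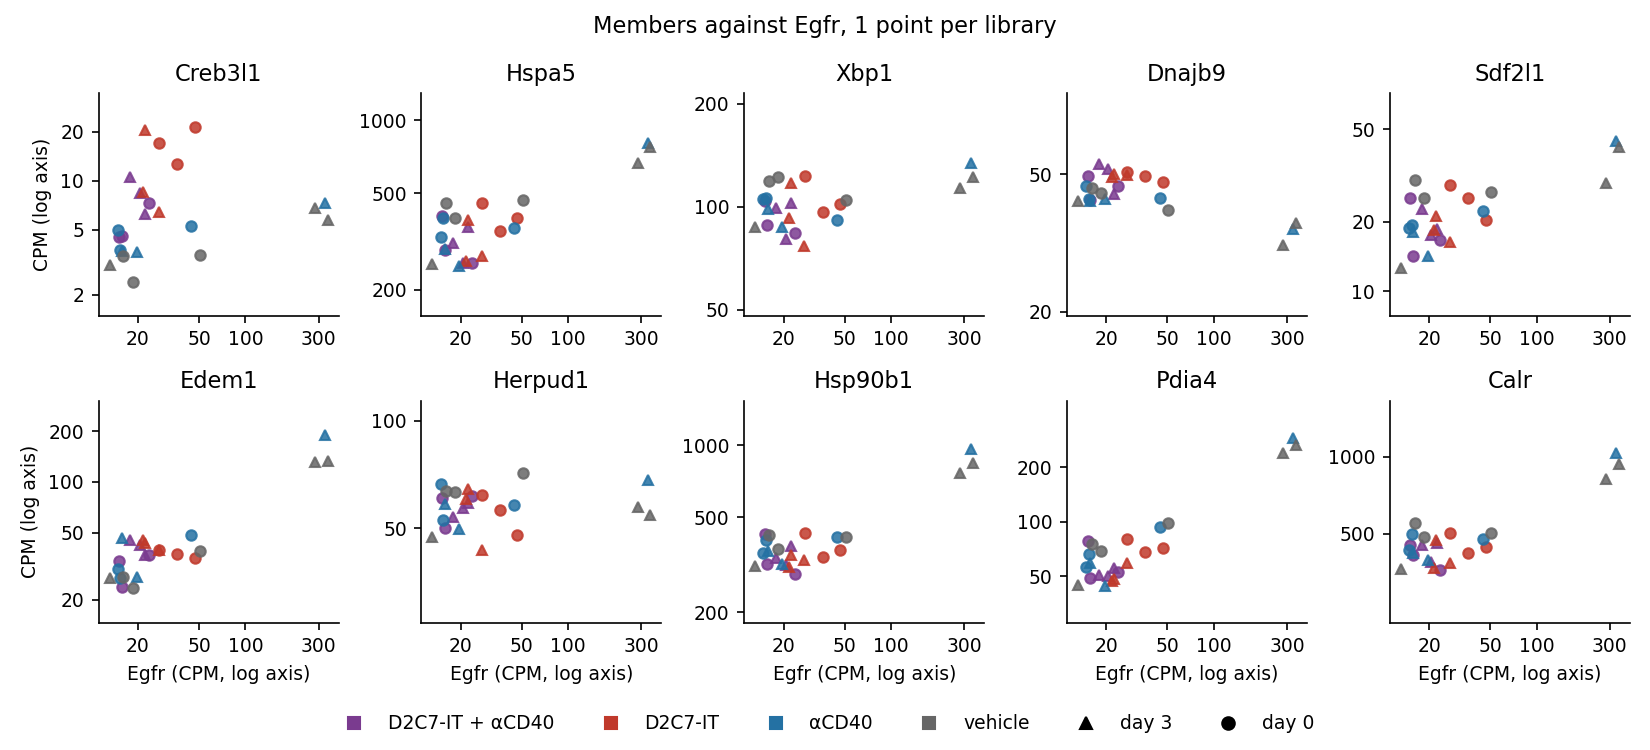
Each of the 10 genes against Egfr, both in CPM on log axes, with 1 point per library, colours for treatment and triangles for day 3. The 3 libraries above 100 CPM of Egfr hold the highest values of Hspa5, Hsp90b1, Calr, Pdia4 and Edem1 (132 to 190 CPM in Edem1) and the lowest of Dnajb9 (31.2 to 36.1 CPM), and lie inside the range of Creb3l1.

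Other genes of the ER were read in lists chosen with earlier results of these data known. The counts below, for D2C7-IT against Vehicle at day 3, stand against 0% of all genes called by edgeR, 28.2% at an unadjusted p under 0.05 and 2771 called by DESeq2. Of 24 other folding genes, edgeR called 0, with 14 at an unadjusted p under 0.05, and DESeq2 called 9, all lower. Prdx4, which encodes an ER peroxiredoxin, was at 9.72 ± 1.13 CPM after D2C7-IT, against 39.3 ± 24.7 CPM in Vehicle tumours (SD, n = 3 each; log2 fold change -2.02 ± 0.54 SE, adjusted p = 0.08 by edgeR). Txndc5 (-1.40), Dnajc10 (-0.53) and Pdia6 (-1.28), genes of thioredoxin-fold enzymes, also averaged below Vehicle, each with an adjusted p of 0.08 to 0.0851. With the high-Egfr libraries left out, the log2 fold change was -0.15 for Prdx4, -0.20 for Txndc5, -0.31 for Dnajc10 and 0.05 for Pdia6. Txndc5 and Dnajc10 were the 2 of the 24 that did not overlap with Vehicle, against 13.2% of all genes tested. The median of the 24 genes was -0.50, and 0.05 without the high-Egfr libraries.

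Of 16 other genes of ER-associated degradation, edgeR called 0 with 4 at an unadjusted p under 0.05, a share near that of all genes, and DESeq2 called 1, lower. Derl1, which encodes a channel-like protein of the degradation complex, had the smallest p (-0.50 ± 0.17, adjusted p = 0.0864; -0.12 without the high-Egfr libraries). Of 15 tested genes of protein entry into the ER, edgeR called 0 with 8 at an unadjusted p under 0.05, and DESeq2 called 1, lower. Of 16 genes of transport from the ER, edgeR called 0 with 5 at an unadjusted p under 0.05, and DESeq2 called 3, lower. Kdelr2, which encodes a receptor that returns chaperones to the ER, had the smallest p of the transport genes (-1.42 ± 0.42, adjusted p = 0.0804; 0.07 without the high-Egfr libraries). Of 5 sensor genes, edgeR and DESeq2 called 0, with 1 at an unadjusted p under 0.05: Ern1, at 20.8 ± 3.11 CPM after D2C7-IT, against 44.6 ± 25.6 CPM in Vehicle tumours (SD, n = 3 each; log2 fold change -1.11, and 0.47 without the high-Egfr libraries). Without the high-Egfr libraries edgeR called 0 genes in each of these lists, and their medians were 0.04 for degradation, 0.08 for entry, 0.10 for transport and 0.20 for the sensors, against 0.06 for all genes tested.

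At day 0 after D2C7-IT, the medians of these lists were -0.07 for folding, 0.02 for degradation, -0.01 for entry, 0.04 for transport and -0.04 for the sensors, against -0.01 for all genes tested. edgeR and DESeq2 called 0 genes in each of the 5 lists, against 0.0808% of all genes called by edgeR and 133 called by DESeq2. At an unadjusted p under 0.05 stood 1 gene in all, Sec16a of the transport list (0.24 ± 0.11), against 4.52% of all genes.

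The 12 genes of the PERK and integrated stress response arm summed to 770 to 900 CPM in the high-Egfr libraries, against 355 to 778 CPM in the other 21. After D2C7-IT at day 0, 8 of 12 lay above Vehicle without overlap, against 11% of all genes tested lying higher without overlap, a description on the comparison that chose Creb3l1. Ddit3, which encodes the stress factor CHOP, rose after D2C7-IT + αCD40 at day 3, at 33.5, 74.1 and 72.0 CPM, against 23.6, 23.0 and 24.5 CPM in Vehicle tumours (log2 fold change 1.34 ± 0.22 SE; adjusted p = 0.0313 by edgeR). It was the 1 of 12 genes called there (0.0404% of all genes tested), with a log2 fold change of 1.38 without the high-Egfr libraries (adjusted p = 0.708 on 1 Vehicle library) and an adjusted p of 0.365 with only the groups compared in the fit. Leaving out 1 library at a time gave adjusted p of 0.000161 to 0.294, no longer called without Vehicle replicate 2 or 3 or without the combination's replicate 2 or 3. Ddit3 also lay above Vehicle without overlap after D2C7-IT alone at day 3, at 48.7, 57.5 and 37.9 CPM, against 13.2% of all genes not overlapping. At day 0 it was at 37.8, 39.7 and 44.3 CPM after D2C7-IT, against 30.4, 31.2 and 30.9 CPM in Vehicle tumours, again without overlap.

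The 5 genes whose log2 CPM was most like that of Creb3l1 over the 12 day 0 libraries, among 14488 genes with a mean of at least 1 CPM, were Cp, Hif1a, Fas, Lif and Gch1, with Pearson r of 0.951 to 0.964. Cp, which encodes ceruloplasmin, averaged 239 CPM in D2C7-IT tumours of day 0, against 27.3 CPM in Vehicle tumours. Lif, a cytokine gene, was at 16.7, 25.7 and 27.0 CPM in D2C7-IT tumours of day 0, against 1.51, 0.787 and 0.265 CPM in Vehicle tumours. At day 3 Lif was at 92.6, 5.85 and 5.08 CPM in D2C7-IT tumours, so the tumour with the highest Creb3l1 of that day (20.6 CPM) also held the highest Lif. These 12 points share a day and fall into a D2C7-IT group and the rest. They include the values that chose Creb3l1, so genes that separate the same groups rank high by design. Over the 21 libraries without high Egfr, which include those values too, r of the 5 genes was 0.881 (Cp) to 0.951 (Lif). That no other gene of the response was among the 5 is a description only.

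The 5 genes most like Hspa5 over the same libraries were Calr, Pdia6, Hsp90b1, E2f6 and Manf, with r of 0.889 to 0.907. Of these, 4 encode ER proteins, and over the 21 libraries without high Egfr their r was 0.891 to 0.927, while E2f6, which encodes a transcriptional repressor, was at 0.599.

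Within the groups that hold no high-Egfr library, the chaperones varied together and Creb3l1 varied less with them. As deviations from the group mean in the 18 libraries of the 6 groups with no high-Egfr library, Pearson r between pairs of Hspa5, Hsp90b1, Calr and Pdia4 was 0.352 to 0.933 (median 0.776; Spearman rho 0.401 to 0.936). Hspa5 and Calr were the closest pair. Creb3l1 had r of -0.08 (Pdia4) to 0.44 (Herpud1) with the other 9 genes (median 0.23; Spearman rho 0.01 to 0.54), and Dnajb9 of -0.10 to 0.52 with the 8 genes other than Creb3l1 (median 0.03). Over all 24 libraries the r of Creb3l1 was higher with the chaperones: 0.58 with Hspa5, 0.59 with Calr, 0.52 with Hsp90b1 and 0.52 with Pdia4. With the other genes it then ran from -0.33 (Dnajb9) to 0.64 (Edem1), and between pairs of those chaperones r was 0.926 to 0.983. These points share library, depth and group, are given as a description and carry no test.

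**Figure D5:**
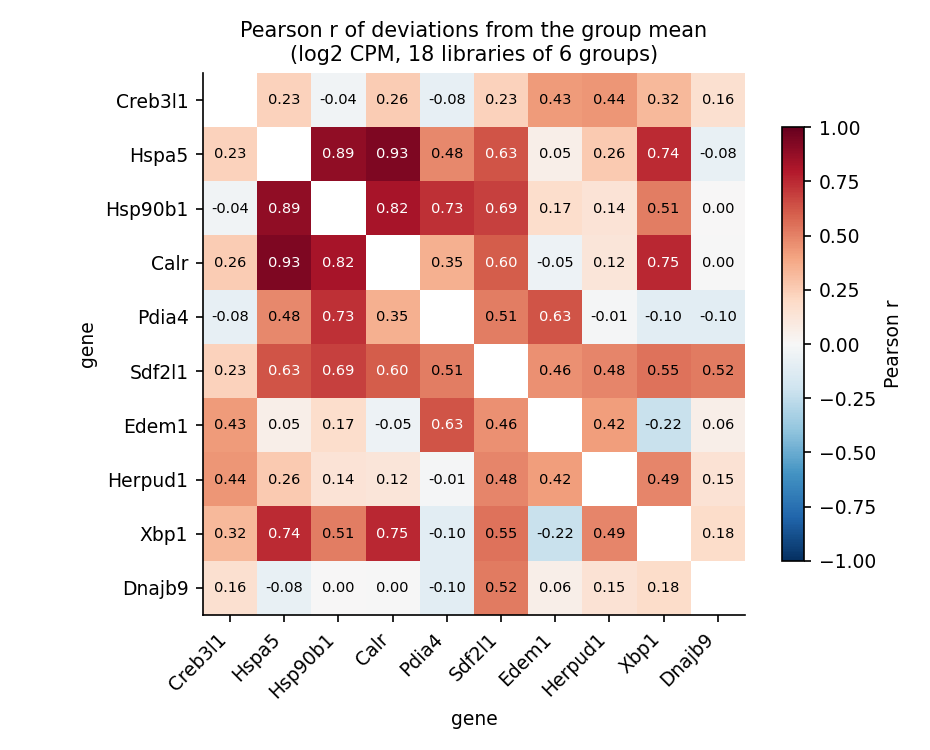
Pearson r between the 10 genes, as deviations of log2 CPM from the group mean over the 18 libraries of the 6 groups that hold no high-Egfr library. Hspa5, Hsp90b1 and Calr form the block of highest values (0.82 to 0.93), and the row of Creb3l1 runs from -0.08 to 0.44.

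Reads could be shared where genes overlap, because the library kit does not mark strand. Herpud1 overlaps an antisense gene (77 counts over all libraries), and Hsp90b1 overlaps a pseudogene on the other strand (2688 counts) and a transcript on its own strand (1244 counts). On GRCm38 with GENCODE M21, Creb3l1 lies at chr2:91982328-92024502 on the minus strand, Hspa5 at chr2:34771970-34777547 on the plus strand, and no gene of the annotation overlaps either. The GENCODE start of Hspa5 lies upstream of the RefSeq one, so that the motif window of Hspa5 falls inside the GENCODE gene. Hsp90b1 had at least 290 CPM in each library, so these counts are small beside its own.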

How the data were processed

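Poly(A) RNA of frozen tumours was sequenced, 1 library for each of 24 tumours, using a NEBNext Ultra kit per the labels' protocols. The authors deposited counts as whole reads per Ensembl gene, not normalized, in 6 tables of 36 columns, of which 12 repeat another column exactly (0 differ). Per the submitters' processing notes, reads were handled with STAR 2.5.2b, Trimmomatic 0.36, bcl2fastq 2.17 and Subread 1.5.2 (featureCounts) on GRCm38. These sources name no annotation release and no strand setting. Columns were matched to tumours by the tumour number in the title. Symbols, positions and exon lengths came from GENCODE M21 (48970 of 49315 identifiers with a symbol), and promoters from RefSeq.

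Depth was 24697576 to 48119840 counts per library, and precision is limited by 3 tumours a group. In R 4.3.3, edgeR 4.0.16 filtered genes by filterByExpr, scaled libraries by TMM and fitted 1 mean per group over all 24 libraries (robust quasi-likelihood F test, 16 residual degrees of freedom), so all comparisons share a spread pooled over all 8 groups. p-values were adjusted by Benjamini-Hochberg over 22280 genes and called under 0.05, in 13 comparisons. The SE is the log2 fold change divided by the square root of F. CPM use TMM-scaled library sizes, log2 CPM a prior count of 2, and TPM the summed exon length. DESeq2 1.42.0, RLE size factors in edgeR, no filter, fits to the groups compared, the replicate block and leaving out each library were alternatives. Leaving out the 3 libraries with Egfr over 100 CPM was added after seeing the data. The scripts were tested on simulated counts.

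The 10 genes, the lists and the rule for other genes to name (up to 4 per list by smallest p in a comparison described, and the 5 genes of highest r with Creb3l1 and with Hspa5) were chosen with earlier results of these data known. The tumours are separate samples by the labels. D2C7-IT + αCD40 and D2C7-IT at day 0 were not tested against each other.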

Additional observations from a re-analysis of the deposited data

How the results depend on the processing

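With 3 tumours a group the counts of calls moved with the tool and with single libraries. DESeq2 called 133 genes for D2C7-IT against Vehicle at day 0 (edgeR 18), 18 for αCD40 and 26 for D2C7-IT + αCD40 against Vehicle, and 6 for D2C7-IT + αCD40 against αCD40. At day 3 it called 2771 genes for D2C7-IT against Vehicle, 37 for αCD40 and 1626 for D2C7-IT + αCD40 (edgeR 9), 212 for D2C7-IT + αCD40 against αCD40 and 3 for D2C7-IT + αCD40 against D2C7-IT. Between day 3 and day 0 it called 2413 genes in Vehicle, 128 in αCD40 (edgeR 13), 27 in D2C7-IT (edgeR 1) and 59 in D2C7-IT + αCD40. Of the 10 genes it called 3 for D2C7-IT and 2 for D2C7-IT + αCD40 against Vehicle at day 3, and 1 in Vehicle between days. The cause of these differences was not tested.

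Fitting only the groups compared gave 87 genes for D2C7-IT against Vehicle at day 0, 0 for D2C7-IT + αCD40 against Vehicle at day 3, 19 for D2C7-IT + αCD40 against D2C7-IT, and between days 0 in αCD40 and 37 in D2C7-IT. Without a filter on low counts, 3 genes were called for D2C7-IT + αCD40 against αCD40 at day 3 and 7 in αCD40 between days.

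The replicate numbers did not pair the tumours: residuals of tumours with the same day and number had r of -0.913 to 0.38 (median -0.07, 36 pairs), against -0.772 to 0.822 (median 0.03, 72 pairs) for the same day and another number. With the replicate block, 9 genes and 0 of the 10 were called for D2C7-IT against Vehicle at day 0, and 10 genes for D2C7-IT + αCD40 against Vehicle at day 3.

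Leaving out 1 library at a time gave 0 to 2 genes for D2C7-IT against Vehicle at day 0 and 0 of the 10, in the comparison that chose Creb3l1. It gave 0 to 4 genes for αCD40 against Vehicle at day 0. At day 3 it gave 0 to 8203 genes and 0 to 7 of the 10 for D2C7-IT against Vehicle, 0 to 1364 and 0 to 1 for αCD40, 0 to 6925 and 0 to 6 for D2C7-IT + αCD40, and 0 to 88 genes for D2C7-IT + αCD40 against αCD40. Between days it gave 0 to 9451 genes and 0 to 5 of the 10 in Vehicle, 0 to 94 genes in αCD40, 0 to 14 in D2C7-IT and 0 to 42 in D2C7-IT + αCD40. Log2 fold changes that changed sign were Pdia4 (-0.25 to 0.027) for D2C7-IT and Edem1 (-0.069 to 0.32) for D2C7-IT + αCD40 against Vehicle at day 0, and Herpud1 for D2C7-IT against Vehicle at day 3 (-0.032 to 0.23). For Creb3l1 they were D2C7-IT + αCD40 against αCD40 at day 0 (-0.049 to 0.34), D2C7-IT + αCD40 against D2C7-IT (-0.80 to 0.17) and αCD40 against Vehicle (-0.49 to 0.18) at day 3, and αCD40 between days (-0.34 to 0.22).

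Without the 3 high-Egfr libraries, 0 genes were called for D2C7-IT + αCD40 against Vehicle at day 3 and 0 in αCD40 between days. For D2C7-IT against Vehicle at day 3, the log2 fold change became 0.28 for Hspa5, 0.092 for Hsp90b1, 0.18 for Calr, 0.21 for Pdia4, 0.67 for Edem1, 0.58 for Sdf2l1 and 0.14 for Xbp1. For D2C7-IT + αCD40 it became 0.31 for Hspa5, 0.17 for Hsp90b1, 0.28 for Calr, 0.24 for Pdia4, 0.65 for Edem1, 0.67 for Sdf2l1 and 0.14 for Xbp1. For Creb3l1 it became 0.29 for αCD40 against Vehicle at day 3, -0.040 in Vehicle between days and -0.34 in αCD40 between days.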
